A study of Mus musculus with 15 samples.

Results

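The mitosis and spindle genes examined here are 41 genes of the 34432 listed for CT26 cells, a mouse colon carcinoma cell line. They were taken by symbol from a list of genes that drive chromosome segregation and cell division, and each symbol was found on a single row of both expression tables. All 41 passed the filter on low values in both experiments (10 normalized counts or more in 3 or more libraries), so all 41 were tested. RNA was sequenced in 2 experiments with 15 libraries, 3 for each of 5 groups. In the first, CT26 cells of a stable line carrying a doxycycline (DOX)-inducible hairpin against Prmt1 (shPrmt1, DOX for 3 days per the study's figure legends) were compared with cells carrying a control hairpin (shControl). Whether DOX was also added to the shControl cells is not in the labels. In the second, cells given MS023 or GSK3368715, inhibitors of the type I arginine methyltransferases to which PRMT1 belongs, were compared with cells given vehicle, and the study's figure legends state 6 µM for 48 hours. Each experiment was normalized on its own, so levels and fold changes of the 2 experiments are set side by side and are not tested against each other.

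Mitosis is driven by CDK1 bound to A- and B-type cyclins, with the Polo and Aurora kinases acting on centrosomes, centromeres and the spindle. Kinetochores couple chromosomes to microtubules, the spindle assembly checkpoint holds back CDC20 and the anaphase-promoting complex (APC/C) until every chromosome is attached, and APC/C then marks cyclins and securin for destruction. Many of these genes are transcribed together late in the cell cycle, through MuvB complexes with B-MYB or FOXM1 that act at CHR elements, and through NF-Y at CCAAT boxes. In RNA from whole cultures, fewer cells in mitosis and less RNA per cell cannot be told apart.

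The promoters below are those of the members called in the most contrasts, in order of the mean size of their fold changes, that had an entry in the RefSeq promoter table (GRCm38.p6, 250 bases before to 50 after the annotated start). Capitals mark CHR elements (TTTGAA or TTCGAA) and CCAAT boxes (CCAAT), each read on both strands, and the letters CCAATTGG count as 2 overlapping boxes. Ube2c lies at chr2:164769679-164769978 on the plus strand, Birc5 at chr11:117848987-117849286 on the plus strand, Cenpe at chr3:135212313-135212612 on the plus strand and Spc25 at chr2:69206164-69206463 on the minus strand.
Ube2c: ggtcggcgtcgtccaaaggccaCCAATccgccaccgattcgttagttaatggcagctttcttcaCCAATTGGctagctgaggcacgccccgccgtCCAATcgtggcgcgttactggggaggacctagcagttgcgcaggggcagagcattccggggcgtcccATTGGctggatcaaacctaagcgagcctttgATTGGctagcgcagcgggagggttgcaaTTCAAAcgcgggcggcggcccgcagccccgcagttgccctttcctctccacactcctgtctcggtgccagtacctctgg
Birc5: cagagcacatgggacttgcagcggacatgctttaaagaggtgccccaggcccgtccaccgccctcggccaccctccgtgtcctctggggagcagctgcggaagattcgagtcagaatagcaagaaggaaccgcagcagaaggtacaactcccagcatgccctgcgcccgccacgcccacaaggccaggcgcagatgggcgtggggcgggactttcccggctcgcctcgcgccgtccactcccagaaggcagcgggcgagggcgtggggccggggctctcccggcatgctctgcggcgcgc
Cenpe: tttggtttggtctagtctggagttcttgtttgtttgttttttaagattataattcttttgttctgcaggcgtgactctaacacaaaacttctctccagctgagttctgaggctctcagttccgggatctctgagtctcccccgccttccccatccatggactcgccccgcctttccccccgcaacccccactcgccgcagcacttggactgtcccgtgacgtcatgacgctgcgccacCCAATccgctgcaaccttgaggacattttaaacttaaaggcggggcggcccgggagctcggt
Spc25: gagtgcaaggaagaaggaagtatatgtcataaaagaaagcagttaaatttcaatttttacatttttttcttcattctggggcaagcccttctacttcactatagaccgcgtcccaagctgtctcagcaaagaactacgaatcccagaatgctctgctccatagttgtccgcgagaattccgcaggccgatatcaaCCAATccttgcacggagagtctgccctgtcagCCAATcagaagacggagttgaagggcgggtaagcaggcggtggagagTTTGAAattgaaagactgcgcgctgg

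The Ube2c window held 1 CHR element 29 bases before the start and 6 CCAAT boxes. The Spc25 window held 1 CHR element 24 bases after the start and 2 CCAAT boxes. Cenpe had 1 CCAAT box, 12 bases before the start, and no CHR element, while Birc5 had neither set of letters in this window. Of the 41 members, 33 had an entry, and the first listed entry of each gene was used. A CHR element was found in 25 of them (75.8%) against 19.4% of the 27025 genes with an entry. A CCAAT box was found in 24 members (72.7%) against 37.9% of all genes, and both motifs in 22 (66.7%) against 7.70%. A CHR element began within 50 bases of the start in 23 of 33 members (69.7%) and in 5.29% of all genes. Birc5, Mad2l1, Nuf2, Nusap1, Pttg1 and Mybl2 were the 6 members with neither motif. Ccna2, Cdc25c, Aurkb, Incenp, Spc24, Kif20a, Tpx2 and Foxm1 had no entry. A CHR element was present in 8 of the 10 members with an entry that were called in at least 1 contrast, and in 17 of the 23 called in none.

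**Figure D1:**
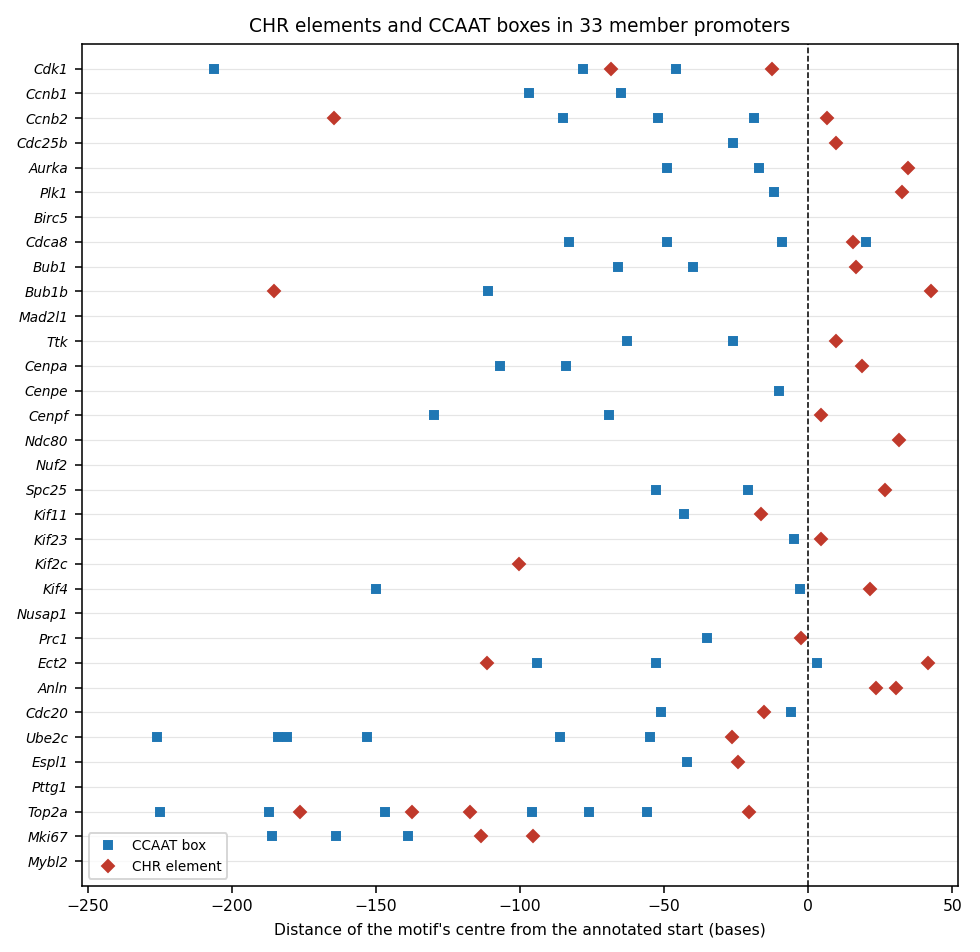
Positions of CHR elements (diamonds) and CCAAT boxes (squares) in the promoters of 33 members, 1 row per gene, on an axis of distance in bases from the annotated start (dashed line). Of the 25 members with a CHR element, 23 had one that began within 50 bases of the start, and most CCAAT boxes lay before the start.

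The libraries held 17284091 to 29233738 reads on genes in the knockdown experiment and 40119305 to 93697833 in the inhibitor experiment. Prmt1 had 669, 761 and 683 normalized counts in the shPrmt1 libraries against 5601, 5717 and 5620 in the shControl libraries, or 12.5% of the control mean. In cells given inhibitor the Prmt1 mean was 14826 (MS023) and 15489 (GSK3368715) normalized counts against 15611 with vehicle. As a check of the label, 4 of 9 markers of colon epithelium (Epcam, Cdh1, Vil1 and Cdx1) had under 10 normalized counts in every library, and Krt8, Krt19 and Cdx2 did so in the knockdown experiment only. In each experiment 2 of the 9 had at least 10 in every library, and the 9 summed to 541 to 810 normalized counts per library in the knockdown experiment and 1245 to 1851 in the inhibitor experiment. All 4 mesenchymal markers examined had at least 10 in every library. Among the 7 immune markers, Ptprc, Cd3e, Adgre1 and Csf1r had under 10 in every library, and 1 in each experiment had at least 10 in every library. The library shControl 2 held the highest or lowest value of its group in 38 of the 41 members, shPrmt1 2 in 36, vehicle 2 in 35, GSK3368715 2 in 34 and vehicle 1 in 33, so results that change without 1 library are given with that value.

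Per kilobase of annotated exon, the members ranged widely in control cells. Ube2c, the ubiquitin-conjugating enzyme of APC/C, was the highest at 1994 normalized counts per kb in shControl cells and 6004 in vehicle cells. Top2a, which untangles DNA before segregation, had 4947 per kb in vehicle cells, Tpx2, a spindle assembly factor that activates Aurora A, had 4415, and Cdc20, the mitotic activator of APC/C, had 3969. The lowest were Cdc25c, a phosphatase that activates CDK1, at 212 and 556 per kb in shControl and vehicle cells, and Spc24, a subunit of the NDC80 kinetochore complex, at 200.2 and 693. Exon lengths are the union over all annotated transcripts, so a gene with a long rarely used exon is set too low on this scale.

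In cells with Prmt1 knocked down, 2 of the 41 members were called lower and 0 higher by limma at an adjusted p under 0.05, where 7.17% of all 11485 genes tested were called lower and 7.5% higher. The members called were Cdc25c, at 70.6% of the control level, and Spc24, at 73.8%. The share of members called lower, 4.88%, was near that of all genes, and the difference was not tested. The count was 3 with a pseudocount of 5 or a minimum of 50 normalized counts. It was 5 by DESeq2 and 6 in the replicate-block fit, all lower. Leaving out shControl 1 or shControl 3 gave a count of 1, and leaving out shPrmt1 2 gave 4, lower in each case. At an unadjusted p under 0.05 there were 12 members, 10 lower and 2 higher. The median log2 fold change over the members was -0.04, against -0.004 over all genes, with 25 members below 0. The changes were small, with 38 of the 41 under 0.3 in absolute log2 fold change. The median absolute log2 fold change was 0.10 over the members and 0.17 over all genes tested.

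With MS023, 15 of the 41 members (36.6%) were called lower and 0 higher, where 14.1% of all 13014 genes tested were called lower and 13.7% higher. A minimum of 50 normalized counts kept all 41 members but only 11371 genes, so all genes tested include levels lower than those of the members. Shares among genes of matched level were not compared, here or for the other lists. Of the members 35 were below 0, and the median log2 fold change was -0.14, against 0.003 over all genes. With GSK3368715, 5 members (12.2%) were called lower and 0 higher, where 4.47% of all genes were called lower and 5.16% higher. Leaving out any of the 9 libraries brought this count to between 1 and 3. The median was -0.05 against 0.0004 over all genes, and 30 members were below 0. Changes were small here too, with 35 of 41 members under 0.3 in absolute log2 fold change with MS023 and 40 with GSK3368715. The median absolute log2 fold change was 0.14 over the members and 0.18 over all genes with MS023, and 0.09 and 0.13 with GSK3368715. The inhibitors share the vehicle libraries, so the values of both rest on the same 3 controls. In the 3 contrasts together, 1 member was called in all, 5 in 2, 9 in 1 and 26 in none.

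**Figure D2:**
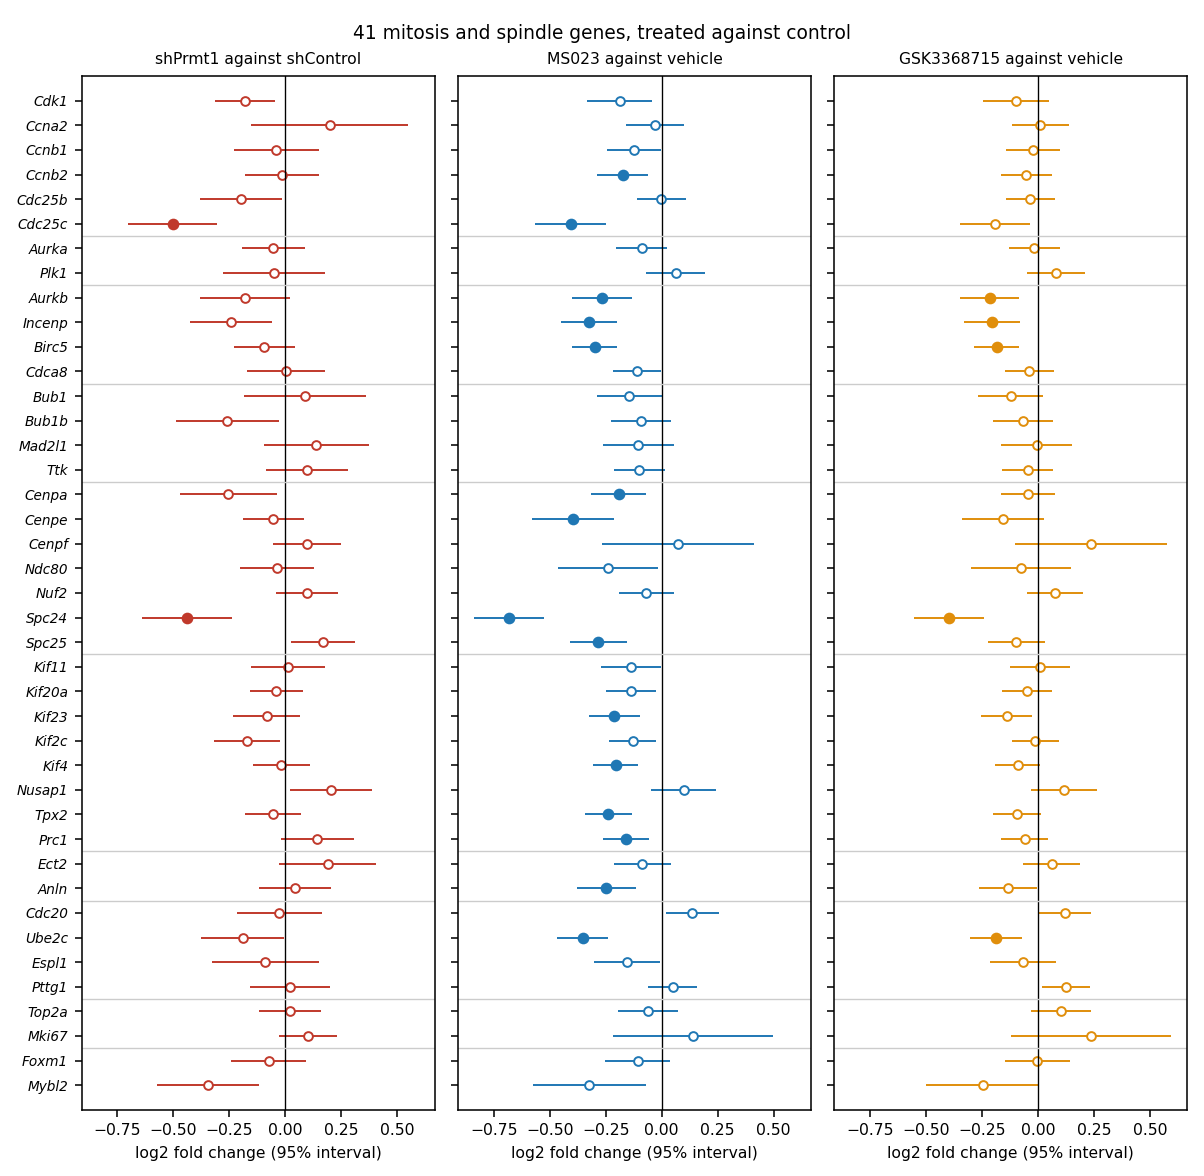
Log2 fold change with its 95% interval from limma for each of the 41 members (rows, in blocks by role) in the knockdown, with MS023 and with GSK3368715, filled where the adjusted p was under 0.05. Filled points lie left of 0 in each panel, 2 in the knockdown, 15 with MS023 and 5 with GSK3368715, and the lowest value is -0.68 for Spc24 with MS023.

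Among the kinetochore genes, Spc24 (ENSMUSG00000074476, mm10 chr9:21755442-21760303) fell in all 3 contrasts. It had 526, 499 and 521 normalized counts in shControl cells and 396, 349 and 396 in shPrmt1 cells, and 1871, 1628 and 1854 with vehicle, 1060, 1130 and 1144 with MS023 and 1368, 1385 and 1304 with GSK3368715. No treated library reached its lowest control library. This held for 18.9% of all genes tested in the knockdown, 22.1% with MS023 and 14.1% with GSK3368715. The log2 fold change was -0.44 ± 0.09 (SE, n = 3 per group) in the knockdown (adjusted p = 0.0137 by limma), -0.68 ± 0.07 with MS023 (adjusted p = 0.000136) and -0.40 ± 0.07 with GSK3368715 (adjusted p = 0.00757). The call in the knockdown was lost without shControl 1 or shControl 3, and adjusted p reached 0.0715, while both inhibitor calls held under all 20 alternatives.

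Spc25, the direct partner of Spc24 in the NDC80 complex, had 4709, 4413 and 4487 normalized counts with vehicle and 3794, 3747 and 3642 with MS023, and fell by 0.28 on the log2 scale (adjusted p = 0.00466 by limma). In the knockdown it stood above control in each library, at 1395, 1452 and 1372 against 1231, 1268 and 1257, with a log2 fold change of 0.17 that did not pass the test (adjusted p = 0.111 by limma). Groups did not overlap, in either direction, in 38.0% of all genes tested there. The other members of the complex, Ndc80 and Nuf2, had log2 fold changes of -0.24 and -0.07 with MS023, and neither was called, although Ndc80 was called lower without vehicle 2 or GSK3368715 2.

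Cenpe, the kinesin that carries chromosomes to the spindle equator, had 19727, 23307 and 24513 normalized counts with vehicle and 15613, 18377 and 17234 with MS023. All MS023 libraries lay below all vehicle libraries, which held for 22.1% of all genes tested. The log2 fold change was -0.40 ± 0.08 (adjusted p = 0.00559 by limma). With GSK3368715 it had 20492, 20258 and 19644, with 2 libraries inside the range of vehicle and 1 just under it, and a log2 fold change of -0.16 that was not called. In the knockdown the shControl libraries lay at 8179, 8170 and 8179 and 2 of the 3 shPrmt1 libraries lay near them, at 8116 and 8208, with the third at 7339. Cenpa, the centromeric histone H3 variant, had 5990, 6159 and 5539 with vehicle and 5263, 5171 and 5030 with MS023, and fell by 0.19 (adjusted p = 0.0243 by limma), a call lost in 5 of the 20 alternatives, among them without vehicle 1 or 2 and without MS023 2 or 3. Cenpf was read from vehicle libraries that were far apart, at 14322, 24271 and 20562, and no contrast called it. In all, MS023 called 4 of the 7 centromere and kinetochore members lower and GSK3368715 and the knockdown 1 each. The share of all genes called lower was 14.1% with MS023, 4.47% with GSK3368715 and 7.17% in the knockdown.

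The chromosomal passenger complex, in which Aurora B acts with INCENP, survivin and borealin to correct wrong attachments and guide cytokinesis, had 3 of its 4 members lower with each inhibitor and 0 called in the knockdown by limma. Among all genes tested, 14.1% were called lower with MS023, 4.47% with GSK3368715 and 7.17% in the knockdown. The GSK3368715 calls held in fewer alternatives than the MS023 calls, as given below. Incenp (ENSMUSG00000024660, mm10 chr19:9872296-9899551), the scaffold, had 10851, 9481 and 10569 normalized counts with vehicle, 8156, 8117 and 8360 with MS023 and 8935, 8724 and 9115 with GSK3368715. All 6 inhibitor libraries lay below the lowest vehicle library, where 22.1% of all genes tested did so with MS023 and 14.1% with GSK3368715. The log2 fold change was -0.32 ± 0.06 with MS023 (adjusted p = 0.00212 by limma) and -0.20 ± 0.06 with GSK3368715 (adjusted p = 0.0451 by limma).

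Aurkb (ENSMUSG00000020897, mm10 chr11:69045647-69051664), the kinase, had 6575, 6578 and 7068 normalized counts with vehicle, 5331, 5638 and 5855 with MS023 and 6200, 5598 and 5617 with GSK3368715. It fell by 0.27 with MS023 (SE 0.06, adjusted p = 0.0085 by limma) and by 0.22 with GSK3368715 (SE 0.06, adjusted p = 0.0475 by limma), with no overlap with vehicle. Treated libraries all lay below vehicle in 22.1% of all genes tested with MS023 and in 14.1% with GSK3368715. Birc5 (ENSMUSG00000017716, mm10 chr11:117849251-117855743), which encodes survivin, had 6230, 6450 and 6159 with vehicle, 5129, 5095 and 5089 with MS023 and 5392, 5497 and 5682 with GSK3368715. Its fold changes were -0.30 ± 0.05 (adjusted p = 0.00107 by limma) and -0.19 ± 0.05 (adjusted p = 0.0302 by limma) on the log2 scale. Cdca8, which encodes borealin, had -0.11 and -0.04 and was not called.

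In the knockdown, Incenp had 3823, 3405 and 3748 normalized counts in shControl cells and 3170, 2812 and 3310 in shPrmt1 cells. Here too no treated library reached the controls, which held for 18.9% of all genes tested, and the log2 fold change of -0.24 did not pass the test (adjusted p = 0.0776 by limma). It was called lower by DESeq2 on recovered reads and in the replicate-block fit. Aurkb had 2336, 2236 and 2571 against 2338, 1964 and 2011, with overlap (log2 fold change -0.18, adjusted p = 0.2 by limma). Birc5 had 2546, 2383 and 2406 against 2277, 2339 and 2257 (log2 fold change -0.09, adjusted p = 0.319 by limma). The MS023 calls of these 3 genes held under all 20 alternatives. The GSK3368715 calls did not, since Aurkb and Incenp were called in 5 of 20 alternatives and Birc5 in 11 of 20. Of the 9 libraries, leaving out any but GSK3368715 1 ended the Aurkb call, any but vehicle 2 the Incenp call and any but vehicle 1 and MS023 1 the Birc5 call, with adjusted p up to 0.16, 0.143 and 0.0958 over all alternatives.

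Among the CDK, cyclin and phosphatase members, Cdc25c (ENSMUSG00000044201) had 1056, 969 and 1102 normalized counts in shControl cells and 796, 682 and 730 in shPrmt1 cells. With vehicle it had 2884, 2502 and 2820, with MS023 1946, 2064 and 2173 and with GSK3368715 2269, 2453 and 2449, and treated and control libraries did not overlap in any contrast. Of all genes tested, 18.9% lay wholly below control in the knockdown, 22.1% with MS023 and 14.1% with GSK3368715. It fell by 0.50 in the knockdown (SE 0.09, adjusted p = 0.00756 by limma) and by 0.41 with MS023 (SE 0.07, adjusted p = 0.00217 by limma), and its log2 fold change of -0.19 ± 0.07 with GSK3368715 did not pass the test (adjusted p = 0.113 by limma). The first of these calls held under all 16 alternatives and the second under all 20. Gm3550, which shares 12.7% of the Cdc25c exon bases on the opposite strand, had at most 27.6 normalized counts.

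The other phosphatase, Cdc25b, had log2 fold changes of -0.20 in the knockdown, -0.003 with MS023 and -0.03 with GSK3368715, none of them called, although the knockdown value was called in the replicate-block fit. Ccnb2, a B-type cyclin, had 4395, 4421 and 4158 normalized counts with vehicle and 3879, 3700 and 3917 with MS023, and fell by 0.17 (adjusted p = 0.0288 by limma), a call kept in 12 of 20 alternatives and lost without vehicle 1, vehicle 2 or any MS023 library. Cdk1 had -0.18 in the knockdown and -0.19 with MS023 (adjusted p = 0.0749 and 0.0551 by limma). It was called lower in the knockdown by DESeq2, in the replicate-block fit and without shPrmt1 2, and with MS023 by DESeq2 and without vehicle 1. Ccna2, cyclin A2, was read in shPrmt1 cells at 6264, 9560 and 6304, with shPrmt1 2 far above the others, and was not called in any contrast. Ccnb1 has 3 processed pseudogenes in the annotation that match over at least 51.7% of its transcript, each with at most 12.5 normalized counts, and it was not called.

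Ube2c (ENSMUSG00000001403, mm10 chr2:164769898-164778822) was the member of the APC/C group that changed. It had 16214, 15624 and 14995 normalized counts with vehicle, 12171, 11933 and 12576 with MS023 and 13226, 13532 and 14387 with GSK3368715. Each inhibitor library lay below each vehicle library, as in 22.1% of all genes tested with MS023 and 14.1% with GSK3368715. The log2 fold change was -0.35 ± 0.05 with MS023 (adjusted p = 0.000866 by limma), and this call held in all 20 alternatives. With GSK3368715 it was -0.19 ± 0.05 (adjusted p = 0.0468 by limma), called in 4 of 20 alternatives and lost without any 1 of the 9 libraries (adjusted p from 0.0103 to 0.138 over the alternatives). In the knockdown Ube2c had 5264, 5035 and 5254 in shControl cells against 4965, 4033 and 4688, a log2 fold change of -0.19 that was not called (adjusted p = 0.152 by limma). Tnnc2, which shares 22.8% of the Ube2c exon bases on the opposite strand, had at most 5.47 normalized counts.

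Cdc20 differed from Ube2c in the sign of its values. It had 7417, 7780 and 7047 normalized counts with vehicle, 8468, 7860 and 8130 with MS023 and 8131, 7846 and 8163 with GSK3368715, and each inhibitor library lay above each vehicle library. Groups did not overlap, in either direction, in 44.5% of all genes tested with MS023 and in 27.7% with GSK3368715. The log2 fold changes of 0.14 and 0.12 did not pass the test (adjusted p = 0.0761 and 0.184 by limma), but with MS023 the gene was called higher after every library was rescaled to the same upper quartile or total, and without vehicle 2. Pttg1, securin, and Espl1, the separase that it holds inactive, were not called in any contrast.

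Of the kinesins and spindle proteins, MS023 called 4 of 8 lower and the other contrasts 0. The share of all genes called lower was 14.1% with MS023, 4.47% with GSK3368715 and 7.17% in the knockdown. At the last 2 shares, 0 of 8 is not a result about this group. Tpx2 had 20942, 20202 and 20801 normalized counts with vehicle and 16761, 17830 and 17937 with MS023, and fell by 0.24 (adjusted p = 0.00446 by limma). Kif23, the kinesin of the central spindle, fell by 0.21 (a call lost without vehicle 3) and Kif4, a chromokinesin, fell by a log2 fold change of -0.205. Prc1, which bundles the microtubules of the central spindle, had 16199, 15048 and 15226 with vehicle and 14080, 13744 and 13760 with MS023, and fell by 0.16 (adjusted p = 0.0285 by limma), a call kept in 11 of 20 alternatives and lost without vehicle 1, vehicle 3 or any MS023 library. Kif11, the motor that separates the spindle poles, had -0.14, and Nusap1 had 0.10 with MS023 and 0.20 in the knockdown, none of them called. Kif11 was called lower with MS023 without vehicle 1, and DESeq2 called Kif20a and Kif2c, motors of cytokinesis and of the centromere, lower with MS023. Anln, the anillin of the cleavage furrow, had 32403, 37974 and 34873 with vehicle and 29067, 29870 and 29580 with MS023, and fell by 0.25 (adjusted p = 0.0113 by limma). Pdzd11 overlaps 15.1% of the Kif4 exon bases on the opposite strand with up to 3247 normalized counts. Within the shared bases, reads of the 2 genes could be told apart only with strand, which is not given in the sources used here. The same limit applies to Kif20a (Cdc23, 29.3% of exon bases, up to 4222 normalized counts). It also applies to Ccna2 (Exosc9, 12.5%, up to 3187) and to Prc1 (Rccd1, 11.1%, up to 492).

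No member of the spindle assembly checkpoint (Bub1, Bub1b, Mad2l1, Ttk), neither of Aurka and Plk1, neither of Top2a and Mki67 and neither transcription factor was called in any of the 3 contrasts. Among all genes tested, 14.1% were called lower with MS023, 4.47% with GSK3368715 and 7.17% in the knockdown. The checkpoint genes lay between -0.14 and -0.09 with MS023, and Bub1 was called lower without vehicle 1. Mybl2, which encodes B-MYB, had 2630, 2479 and 2856 normalized counts in shControl cells and 2219, 1806 and 2264 in shPrmt1 cells, and 4423, 5585 and 4766 with vehicle against 4038, 3699 and 4030 with MS023. Its log2 fold changes were -0.35 ± 0.10 and -0.32 ± 0.11, just outside the threshold (adjusted p = 0.0512 and 0.0574 by limma). Mybl2 was called lower in the knockdown with a pseudocount of 5, with a minimum of 50, in the replicate-block fit, by DESeq2 and without shPrmt1 2. With MS023 it was called lower by DESeq2, with only the compared groups in the fit, and without vehicle 1, GSK3368715 1 or GSK3368715 2. Foxm1 had -0.07, -0.11 and -0.003 in the knockdown, with MS023 and with GSK3368715. Mki67, the proliferation marker, was 16724 in vehicle 1 and 28147 and 24539 in the other vehicle libraries, so its values of 0.14 with MS023 and 0.24 with GSK3368715 have wide errors (SE 0.16).

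**Figure D3:**
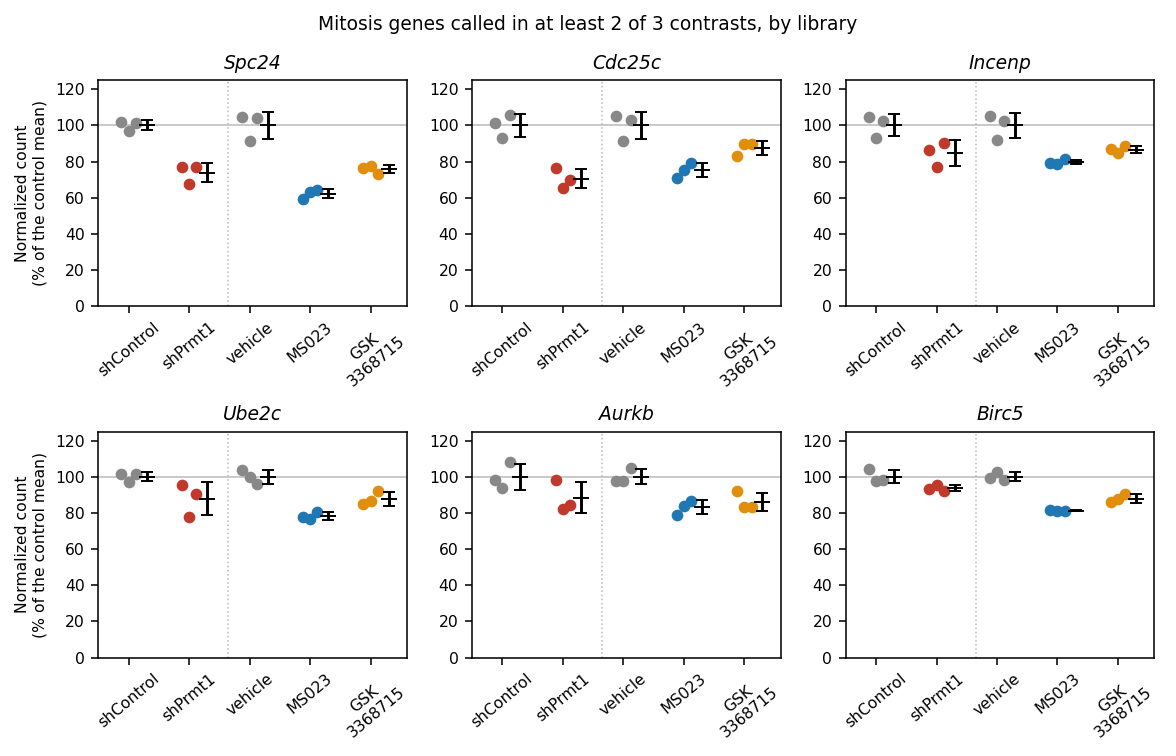
Normalized counts of the 6 members called in at least 2 contrasts, by library, as a percentage of the mean of their own control (shControl or vehicle). Points are libraries, the bar beside them is the mean ± SD (n = 3), and the dotted line divides the 2 experiments. All MS023 and GSK3368715 libraries lie below all vehicle libraries, as they do in 22.1% and 14.1% of all genes tested. Spc24 with MS023 is the lowest group.

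Across the 41 members, the fold changes in the knockdown and with MS023, which share no libraries, correlated with a Pearson r of 0.60 (Spearman rho 0.54). With GSK3368715 in place of MS023 they were 0.64 and 0.60. These are descriptions across genes, which are not independent replicates. The same correlations over all genes tested were not computed, so the values are not shown to be particular to the members. All 3 log2 fold changes were below 0 for 23 members and above 0 for Cenpf, Nusap1, Pttg1 and Mki67, whose values did not pass the test. The log2 fold changes with MS023 did not follow the exon length of the members (Spearman rho 0.0003), nor clearly their vehicle level (0.19). For exon length rho was 0.25 in the knockdown and 0.11 with GSK3368715, and for vehicle level 0.23 and 0.20. Members called with GSK3368715 had a median of 2946 exon bases, against 4926 for those not called.

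A direct comparison of the inhibitors, at the same dose and time and in the same fit, called 0 of the 41 members by limma. Of all genes, 0.315% were called higher with GSK3368715 than with MS023 and 0.2% lower. At an unadjusted p under 0.05, 15 members were higher with GSK3368715 and 0 lower. DESeq2 on recovered reads called 1 member, higher with GSK3368715, and edgeR called 0. The values nonetheless lay to one side, since 39 of 41 members were higher with GSK3368715 than with MS023, with a median log2 difference of 0.10 against 0.005 over all genes. All 3 GSK3368715 libraries were above all 3 MS023 libraries in 22 members and below them in 0, and 21.4% of all genes did not overlap in either direction. Spc24 had the largest difference, 0.28 with a 95% interval of 0.13 to 0.44 (adjusted p = 0.127 by limma), followed by Cenpe at 0.24 (0.06 to 0.42) and Cdc25c at 0.21 (0.06 to 0.37). Aurkb had a difference of 0.05 (-0.08 to 0.18). Cdc25b and Cdc20, at -0.03 and -0.02, were the 2 members below 0. Intervals of 26 members included 0, and since their median width was 0.26, differences of about 0.1 could be neither shown nor put aside for single members.

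**Figure D4:**
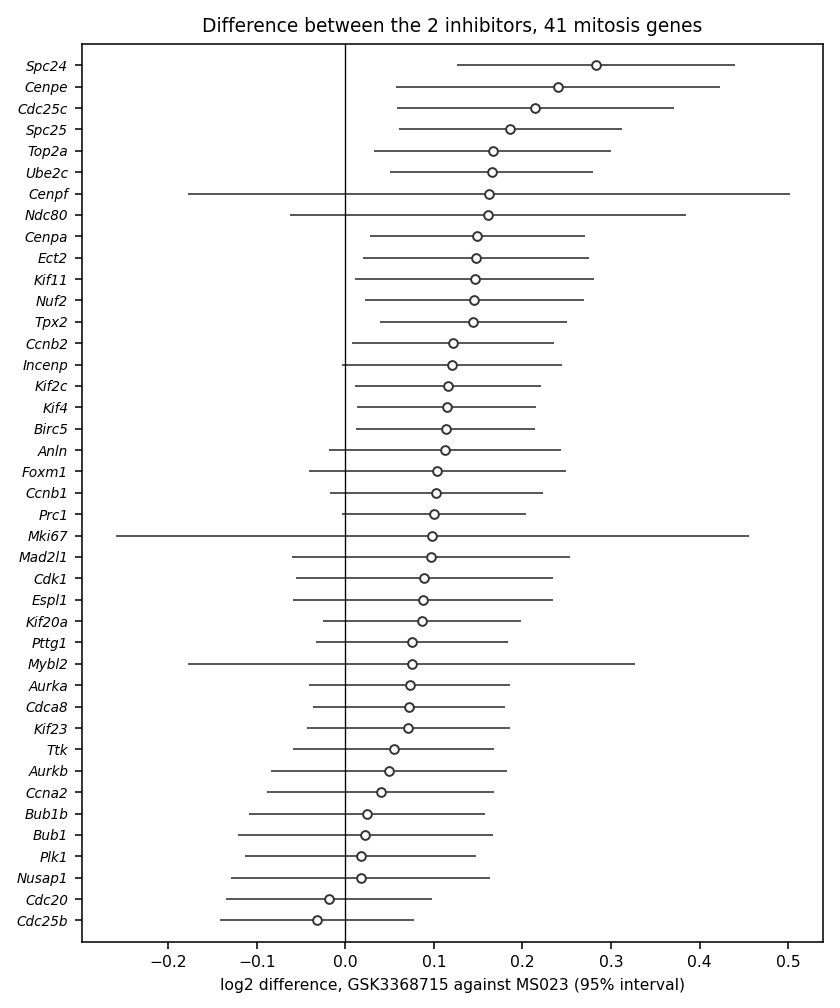
Log2 difference between cells given GSK3368715 and cells given MS023, with its 95% interval from limma, for each of the 41 members in order of size. Points right of 0 are higher with GSK3368715, which holds for 39 members, and no member passed the adjusted threshold.

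The other genes of the pathway were taken from 9 lists with 148 symbols in the tables (Lin54 was not analysed here, and Septin2 stands on 2 rows, which makes 149 rows tested). In the knockdown 2 of the 149 were called higher and 11 lower (7.38%, against 7.17% of all genes), and the total of 13 became 27 without shPrmt1 2 and 2 without shControl 1 or shControl 3. With MS023 5 were higher and 34 lower (22.8%, against 14.1% of all genes), and with GSK3368715 3 were higher and 9 lower (6.04%, against 4.47%). The 45 DNA replication genes had 1 higher and 5 lower in the knockdown, 4 and 8 with MS023 (17.8% lower) and 0 and 2 with GSK3368715. Between the inhibitors, 30 of the 149 rows and 25 of the 45 replication genes were lower with GSK3368715, and 0 were called by limma in either list.

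The shares of all genes called lower and higher were 14.1% and 13.7% with MS023 and 4.47% and 5.16% with GSK3368715. In the knockdown they were 7.17% and 7.5%. The short lists below were not tested against these shares. Of the 16 regulators of mitotic entry and exit, MS023 called 7 lower and 2 higher. Pkmyt1, the kinase that holds CDK1 inactive, had the largest change in this list, at log2 fold changes of -0.79 in the knockdown (adjusted p = 0.00829 by limma), -0.70 with MS023 and -0.49 with GSK3368715. Among the 17 APC/C genes, MS023 called 5 lower and 0 higher, and Anapc13, a small subunit, had -0.57, -0.56 and -0.33 in the same order. Of the 15 outer kinetochore genes, 5 were lower with MS023, 0 with GSK3368715 and 0 in the knockdown, where Ska2 was higher at 0.37. Of the 20 inner centromere genes, MS023 called 5 lower, with Cenpm at -0.64, and 2 higher. Among centrosome genes, Tubg1, gamma-tubulin, had -0.38 in the knockdown, -0.52 with MS023 and -0.36 with GSK3368715, and among cytokinesis genes Cep55, which recruits the abscission machinery, had -0.26, -0.33 and -0.23, each passing the test. Of the 10 genes of MuvB, pocket proteins and partners, MS023 called 1 higher and 1 lower, against 13.7% and 14.1% of all genes. Rbl2, the pocket protein p130, was called higher with MS023 at 0.36 and with GSK3368715 at 0.24, and was not called in the knockdown. E2f5 was lower with MS023 at -0.39, and E2f4 and Rbbp4 were lower in the knockdown at -0.30 and -0.24.

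**Figure D5:**
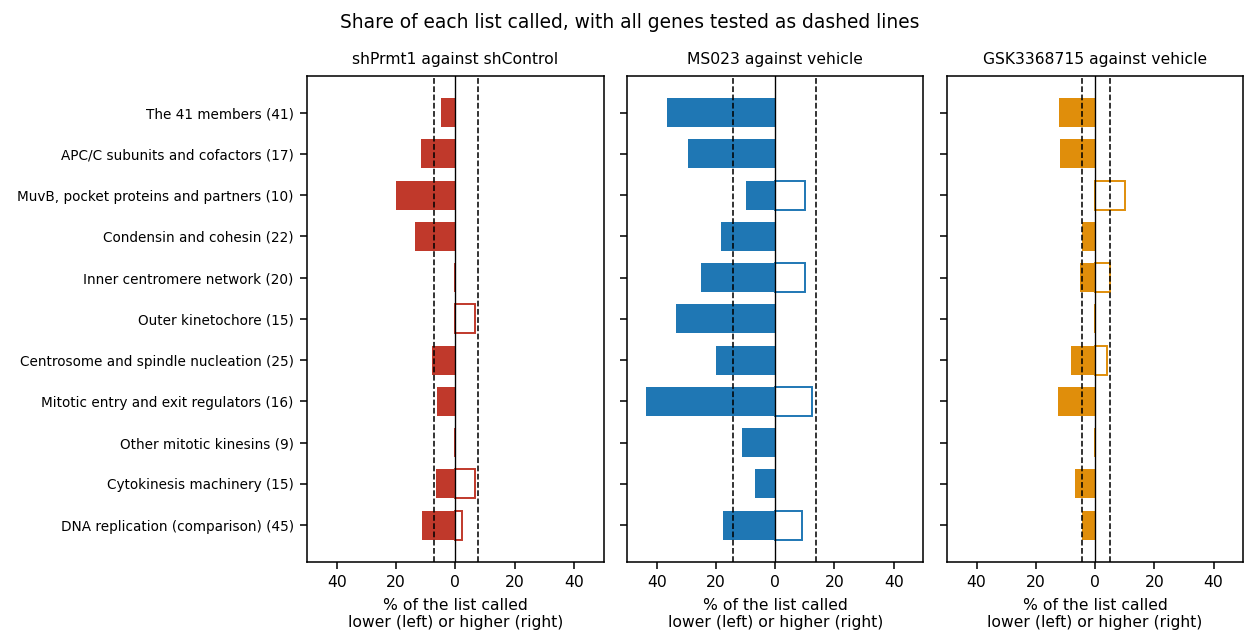
Share of each list called lower (filled bars, to the left) or higher (open bars, to the right) in each contrast, in percent of the rows tested, whose number stands after the name. Dashed lines give the share of all genes tested, and with MS023 36.6% of the 41 members were called lower against 14.1% of all genes.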

How the data were processed

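RNA of 15 CT26 libraries was sequenced as paired-end reads, and the authors quantified them with Salmon 1.4.0 on mm10 and computed DESeq2 size factors, per the submitters' processing notes. The deposited values are gene counts divided by those size factors, a normalized signal called normalized counts here, in a separate table for each experiment. In each library all values were whole multiples of 1 constant within 0.1 read, and dividing by it gave whole reads for 100% of genes listed. These counts carry no molecular identifiers. The authors also deposited tables of their own comparisons with base means, log2 fold changes, standard errors, test statistics and p-values, which were not used.

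A gene was tested if 3 or more libraries of the fit reached 10 normalized counts, by limma 3.58.1 (R 4.3.3; lmFit, eBayes with a trend) on log2(normalized count + 1), two-sided, with Benjamini-Hochberg adjustment over all genes tested and a threshold of 0.05. On this scale changes of low genes are understated. The knockdown fit held 3 libraries against 3, and the 9 inhibitor libraries entered 1 joint fit. The samples are described as biological replicates, and nothing says whether they came from separate cultures, so p-values measure the spread between these samples. Results were recomputed with pseudocounts of 0.5 and 5, with a minimum of 50 or without a filter, after rescaling to the same upper quartile or total, without the trend, with a replicate block, with only the compared groups in the fit, by edgeR 4.0.16 and DESeq2 1.42.0 on recovered reads, and without each library. edgeR called 1712 genes in the knockdown, 3620 with MS023 and 1242 with GSK3368715, where limma called 1684, 3625 and 1254.

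The members, their role groups and the other lists were chosen with earlier results of these data known. Values in every library were given for members called in at least 2 of the 3 treated-against-control contrasts and for the 3 highest and 3 lowest called in each contrast. Other members are named with a value or by role group, and several of these (Cdc20, Mybl2, Spc25, Tpx2, Anln and the members whose libraries were far apart) were chosen for values by library after these were seen. Of the other lists, genes among the 2 largest called changes are named. Exon lengths, overlaps and gene coordinates came from the GENCODE vM21 annotation of mm10, and promoters from RefSeq (GRCm38.p6). Copies (95% identity or more, covering 30% or more of a transcript) were searched with blastn 2.17.0. In simulated data with 200 altered genes, limma found 99% of the genes changed 2-fold and 92% of those changed 1.5-fold in the knockdown design (11498 genes tested), and 100% and 99% in the MS023 design (12794 genes tested). The simulation held only the libraries of the groups compared, with the same dispersion for every gene, and altered no gene of low level. Changes under 1.5-fold, the size of most member changes, were not simulated, so these rates do not apply to them.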

Additional observations from a re-analysis of the deposited data

How the results depend on the processing

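The 15 MS023 calls among the members held best, with 11 kept under all 20 alternatives, against 1 of 5 for GSK3368715 and 1 of 2 in the knockdown, where 16 alternatives were run. The counts of all genes called moved too. Without 1 library they ran from 652 to 2472 in the knockdown, 2409 to 3726 with MS023 and 586 to 1274 with GSK3368715. The share of all genes kept under every alternative was not computed, so these differences are not shown to be particular to the members. No called member changed sign under any alternative. Rescaled to the same total, the median log2 fold change of the members was -0.00866 in the knockdown, -0.102 with MS023 and 0.0827 for GSK3368715 against MS023. In the knockdown DESeq2 called 5 members, and without a trend 5 of the other mitosis genes were called. With GSK3368715, 2 members were called without a filter, at the same upper quartile, at the same total, without a trend and by edgeR, and 1 with only the groups compared. In that last fit 5 other mitosis genes and 1 DNA replication gene were called. Without a filter, without a trend and by edgeR 1 DNA replication gene was called, and DESeq2 called 6. Between the inhibitors DESeq2 called 1 member and 4 other mitosis genes.

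Leaving out 1 library at a time gave 1 to 4 members called in the knockdown (4 without shPrmt1 2), 12 to 17 with MS023, 1 to 3 with GSK3368715 and 0 in each fit between the inhibitors. Other mitosis genes called ran from 2 to 27, 27 to 44, 5 to 12 and 0 to 1 in the same order (27 in the knockdown without shPrmt1 2), and DNA replication genes from 2 to 9, 7 to 14 and 1 to 4 in the treated-against-control contrasts. The median of the members with GSK3368715 ran from -0.0715 (without vehicle 3) to -0.0347.

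Correlations of same-numbered deviations ran from 0.06 to 0.12 in the knockdown and from -0.10 to 0.11 in the inhibitor experiment. The numbers thus gave no clear pairing with the inhibitors, while a weak pairing in the knockdown is not excluded. As a block, the number raised all genes called from 1684 to 2671 in the knockdown and lowered them from 3625 to 3219 with MS023. With the number as a block, 6 members, 24 other mitosis genes and 10 DNA replication genes were called in the knockdown, and 1 member and 1 DNA replication gene with GSK3368715. With 3 libraries per group, the median width of the members' 95% intervals was 0.35 in the knockdown and 0.26 in each inhibitor contrast. Log2 differences of about 0.1 could thus be neither shown nor put aside for most single members, and the knockdown resolved less.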
